A study of Rattus norvegicus with 9 samples.

Results

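The genes described here are 10 members of the interleukin-6 (IL-6) signalling family, chosen by name. They comprise the cytokines Il6, Lif, Il11 and Clcf1, the receptor chains Il6st, Lifr, Osmr and Il11ra1, the transcription factor Stat3 and its feedback inhibitor Socs3. Each of the 10 stands on 1 row of the 19085 genes in the table, and 9 had enough counts to be tested among 13256 genes. The exception was Il11.

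Polyadenylated RNA of cultured rat osteoblasts was sequenced in 3 groups of 3 libraries. The cells were isolated with collagenase from the calvaria of newborn male Sprague-Dawley rats, although the labels also name the knee as the tissue. All groups were kept for 7 days in osteogenic induction medium with serum, β-glycerophosphate, ascorbic acid and dexamethasone. The control group had nothing added to it, the thrombin group had thrombin added at 20 U/mL, and the PD03 group had the same dose of thrombin together with 0.1 μM PD0325901 (PD03), which blocks the kinase MEK (a protocol in the labels writes mM). No group given PD03 without thrombin was analysed here, and the sources used here do not give the number of animals behind each library. P-values therefore measure the spread between these libraries, which may be partly technical. In bulk RNA, fewer cells that express a gene and less of its RNA per cell cannot be told apart.

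Total counts lay between 15447832 and 19841468 per library. Levels are given as CPM (the count of a gene scaled to a fixed library size) after TMM scaling, which compares a gene between libraries, and as the deposited FPKM, which is per length and compares genes within a library. The share of counts taken by Col1a1 was 6.78% to 6.96% with PD03 and 4.18% to 5.05% without it. Scaling by library totals in place of TMM moved the all-gene median for PD03 against control to -0.12 on the log2 scale, and directions that turned with the scaling are named beside their values. Among 11 osteoblast markers, Col1a1, Col1a2, Sparc, Runx2 and Spp1 were well detected, Alpl averaged 0.345 to 3.11 CPM by group, and the late markers Bglap, Ibsp and Dmp1 were near 0. The 10 myeloid markers summed to 21.2 to 24.2 CPM in control, 29.4 to 33.3 in thrombin and 17.9 to 19.6 in PD03 libraries, of which most was Cd14, while the pan-leukocyte marker Ptprc reached at most 0.318 CPM and Aif1 at most 0.0612. Csf1r, the only other tested myeloid marker, did not follow the sum, with means of 0.440 CPM in control, 0.746 in thrombin and 1.24 in PD03 libraries. The 4 endothelial markers in the table summed to 6.36 to 8.51 CPM in the control and thrombin libraries and 11.1 to 12.6 in the PD03 libraries, mostly Tek, with Pecam1 at most 0.442. The 5 chondrocyte markers in the table summed to 90.7 to 101 CPM in control, 66.9 to 72.3 in thrombin and 77.9 to 85.4 in PD03 libraries, mostly Col2a1. Other chondrocyte markers did not follow this sum. In control, thrombin and PD03 libraries, Sox9 averaged 7.68, 14.3 and 16.2 CPM, Acan 0.590, 1.43 and 1.19, and Col9a1 4.09, 3.77 and 7.47. Col10a1 was not tested. The 5 osteoclast markers in the table were almost all Ctsk, at 129, 94.7 and 164 CPM, with Ocstamp, Dcstamp and Atp6v0d2 near 0, and the only lymphoid marker in the table reached at most 0.0632 CPM. The part of these markers in the results below was not tested.

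The cytokines among the members all signal through a shared receptor chain, gp130, which Il6st encodes. IL-6 and IL-11 bind a private receptor (Il6r, Il11ra1) and then pair gp130 chains, LIF joins gp130 to the LIF receptor (Lifr), and oncostatin M joins gp130 to Osmr or Lifr. The paired chains activate JAK kinases, which phosphorylate Stat3, and Stat3 induces Socs3, which binds gp130 and shuts the signal down. In bone, cells of the osteoblast lineage make and answer several of these cytokines, which act on both bone formation and the support of osteoclasts.

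Thrombin against control asks what the protease did to the osteoblasts, and PD03 against thrombin asks what was different once MEK was inhibited in its presence. A gene was called when it passed an adjusted p of 0.05 in edgeR's quasi-likelihood test and a log2 fold change of 0.58 in either direction. For thrombin against control, 3 of the 9 tested members were called (Lif higher, Lifr and Osmr lower), beside 8.06% of all tested genes. For PD03 against thrombin, 3 were called, all lower (Il6, Lif and Socs3), beside 15.9% of all genes in either direction and 6.31% called lower. For PD03 against control, 5 were called lower (Il6, Lif, Lifr, Osmr and Socs3), beside 8.97% of all genes in either direction, 4.07% called lower and 4.90% called higher. With the adjusted p alone and no fold threshold, 7 of the 9 members passed in each comparison, beside 28.7%, 49.8% and 39.9% of all genes in the same order. The comparisons share libraries, so their values are set side by side and are not independent of each other.

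**Figure D1:**
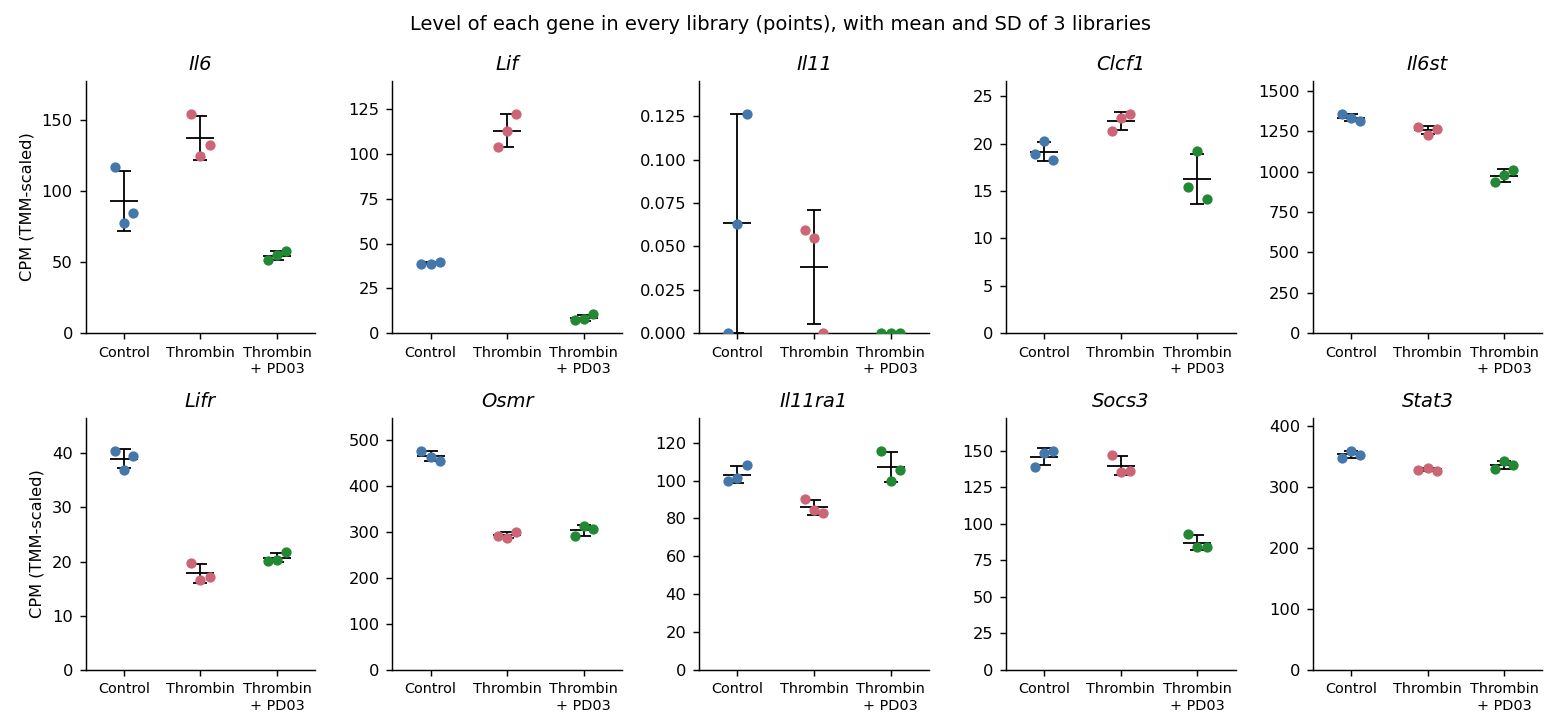
Level of each of the 10 genes in every library (points) in TMM-scaled CPM on linear axes, with bars for the mean and SD of 3 libraries per group. Lif lies at 38.6 to 39.5 CPM in control, 104 to 123 in thrombin and 7.36 to 10.4 in PD03 libraries, while Lifr and Osmr are low in both groups that received thrombin, and Il11 is at or near 0 throughout.

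Lif encodes leukaemia inhibitory factor, a cytokine made by stromal cells and osteoblasts. Lif stood at 38.6, 38.8 and 39.5 CPM in the control libraries, at 104, 113 and 123 in the thrombin libraries and at 7.36, 7.71 and 10.4 in the PD03 libraries. The 3 groups did not overlap, and the PD03 libraries lay below the control libraries as well as below the thrombin libraries. Lif rose 2.90-fold with thrombin (log2 fold change 1.54 ± 0.066, SE, n = 3 per group, edgeR adjusted p = 1.1e-22), a larger value than for 99.6% of tested genes. With PD03, Lif was lower than with thrombin alone by a log2 fold change of -3.74 ± 0.083 (edgeR adjusted p = 2.8e-33), the 12th lowest of 13256. Against control, Lif in the PD03 group was lower by -2.20 ± 0.091 on the log2 scale (edgeR adjusted p = 5.0e-23). On the per-length FPKM scale, Lif averaged 10.7 in control, 30.8 in thrombin and 2.16 in PD03 libraries, which placed its level above 60.0%, 84.4% and 25.3% of tested genes.

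Il6 encodes IL-6 itself, which acts on osteoblasts and on osteoclast formation. Il6 stood at 117, 77.1 and 84.4 CPM in the control libraries, at 154, 124 and 132 in the thrombin libraries and at 51.4, 54.5 and 57.5 in the PD03 libraries. Control replicate 1 lay well above the other control libraries, and no groups overlapped, as was so for 40.3% of all genes in thrombin against control, 55.5% in PD03 against thrombin and 47.8% in PD03 against control. For thrombin against control, the log2 fold change of Il6 was 0.55 (95% interval 0.39 to 0.72, edgeR adjusted p = 3.6e-07), below the fold threshold of 0.58. Without control replicate 1 this value was 0.76, and without thrombin replicate 2 it was 0.62, and Il6 was called in both cases. The edgeR interval draws in part on the spread of other genes, and 0.76 lies outside it. With all libraries, the adjusted p for thrombin against control was 0.0066 by DESeq2 and 0.0071 by limma on log2(FPKM + 1). Il6 was lower with PD03 than with thrombin alone by -1.33 ± 0.084 (edgeR adjusted p = 2.7e-17), which was the 194th lowest value of all genes tested. It was also lower than control, by -0.78 ± 0.086 (edgeR adjusted p = 6.5e-10), but without control replicate 1 this was -0.57 and no longer called, and the adjusted p was 0.083 when tested against the fold threshold itself with edgeR's glmTreat.

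The Il6 promoter is shown because Il6 is the member with the most matches to the transcription factor motifs searched. The motifs were AP-1 (TGANTCA), CRE (TGACGTCA), STAT (TTCNNNGAA), NF-kB (GGGA, any base, then TTTCC) and C/EBP (TTGNNCAA), each sought on both strands of windows from 250 bases before to 50 after the gene start in RefSeq's GRCr8 annotation, where 7 of the 10 members had a window. Lif, Clcf1 and Il11ra1 had none. The 250 bases before the Il6 start (chr4:5894576-5894825, minus strand, GRCr8) read, 5′ to 3′ with motif matches in capitals:
Il6: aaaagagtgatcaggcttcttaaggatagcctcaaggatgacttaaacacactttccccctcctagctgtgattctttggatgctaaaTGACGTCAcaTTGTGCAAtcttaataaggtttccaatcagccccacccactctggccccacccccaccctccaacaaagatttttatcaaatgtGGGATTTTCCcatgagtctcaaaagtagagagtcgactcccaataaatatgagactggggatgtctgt
From the 5′ end, the capitals mark a CRE match at bases -162 to -155, a C/EBP match at -152 to -145 and an NF-kB match at -68 to -59, counted from the gene start, and none of the matches overlaps another. Of 33469 promoter windows of the same length, 1.83% hold the CRE motif, 5.98% the C/EBP motif and 0.362% the NF-kB motif. None of the 7 windows held the STAT motif, which 8.87% of all windows do. A match describes these letters only, and factor binding was not measured. The lack of a match covers only the window at the annotated start. It says nothing of bases farther away or of another start of the same gene.

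Clcf1 encodes cardiotrophin-like cytokine, which acts through the ciliary neurotrophic factor receptor, gp130 and Lifr. Clcf1 stood at 18.9, 20.3 and 18.3 CPM in the control libraries, at 21.4, 22.8 and 23.1 in the thrombin libraries and at 15.5, 19.2 and 14.1 in the PD03 libraries. Every thrombin library lay above the others, while control and PD03 libraries overlapped. None of the 3 differences was called. The log2 fold change was 0.23 for thrombin against control (edgeR adjusted p = 0.061), -0.47 for PD03 against thrombin (adjusted p = 5.9e-05) and -0.24 for PD03 against control (adjusted p = 0.045). Without PD03 replicate 2, the value for PD03 against thrombin was -0.61 and was called.

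Il11 encodes a cytokine of stromal cells that acts through Il11ra1. Its counts were 0, 1 and 2 in the control libraries, 1, 1 and 0 in the thrombin libraries and 0 in each PD03 library, too few for a test. Summed over each group, 3 counts equal 0.0599 CPM in control, 0.0575 in thrombin and 0.0592 in PD03 libraries, a floor that covers counting error only, so a difference in Il11 was not detectable at this depth.

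Il6, Lif and Clcf1 together made up nearly all ligand transcripts of the 4 cytokines. Their summed FPKM was 52.0 to 69.1 in control, 92.7 to 102 in thrombin and 28.3 to 31.2 in PD03 libraries, with no overlap between groups. Il6 held 62.0% to 72.0% of the sum in control, 55.7% to 62.9% in thrombin and 68.0% to 72.3% in PD03 libraries. The share of Lif was 15.5% to 20.4% in control, 27.7% to 33.8% in thrombin and 6.29% to 8.57% in PD03 libraries, again with no overlap. The ratio of Il6 to Lif FPKM was accordingly lowest in the thrombin libraries (1.65 to 2.27), intermediate in control (3.04 to 4.63) and highest in the PD03 libraries (8.44 to 10.8).

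**Figure D2:**
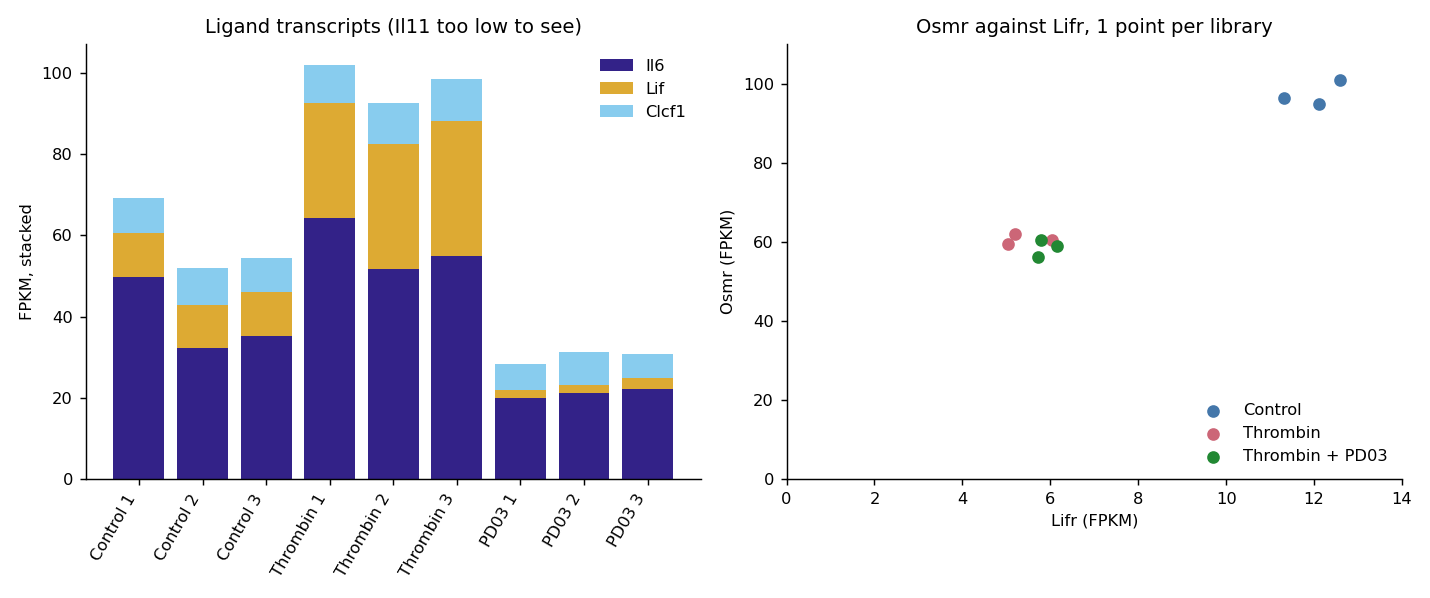
Left, stacked FPKM of Il6, Lif and Clcf1 in each of the 9 libraries, with the summed height lowest in the PD03 libraries (28.3 to 31.2) and highest in the thrombin libraries (92.7 to 102). Right, FPKM of Osmr against FPKM of Lifr with 1 point per library, where the 3 control libraries stand apart from the 6 libraries that received thrombin.

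Osmr and Lifr encode the chains that pair with gp130 for oncostatin M and LIF. Osmr stood at 476, 462 and 455 CPM in the control libraries, at 291, 287 and 299 in the thrombin libraries and at 290.5, 312 and 306 in the PD03 libraries. Both groups that received thrombin lay far below control, and they overlapped each other. Osmr fell with thrombin (log2 fold change -0.67 ± 0.037, edgeR adjusted p = 5.3e-19) and was lower than control in the PD03 group too (-0.62 ± 0.037, adjusted p = 5.9e-18), both close to the fold threshold. Tested against that threshold itself with edgeR's glmTreat, the adjusted p of Osmr was 0.068 with thrombin alone and 0.81 with PD03, each against control. The difference between PD03 and thrombin was 0.05 under TMM (95% interval -0.02 to 0.12, edgeR adjusted p = 0.27), and it was -0.05 with library totals or FPKM.

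Lifr stood at 40.5, 37.0 and 39.6 CPM in the control libraries, at 19.8, 16.6 and 17.1 in the thrombin libraries and at 20.2, 20.3 and 21.7 in the PD03 libraries. The control libraries lay highest by a wide gap, and every PD03 library lay slightly above every thrombin library in TMM-scaled CPM. In FPKM the thrombin (5.04 to 6.03) and PD03 libraries (5.73 to 6.15) overlapped. Lifr fell with thrombin (log2 fold change -1.13 ± 0.079, edgeR adjusted p = 1.8e-15), the 316th lowest value of all genes tested, and remained lower than control in the PD03 group (-0.91 ± 0.078, adjusted p = 5.9e-13). PD03 and thrombin differed by 0.22 (95% interval 0.05 to 0.39, adjusted p = 0.030), which was not called.

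Osmr was the more abundant of the pair per length, with an Osmr to Lifr ratio in FPKM of 7.82 to 8.51 in control, 10.0 to 11.9 in thrombin and 9.60 to 10.4 in PD03 libraries. On the log2 scale the mean ratio was 3.02 in control, 3.49 in thrombin and 3.31 in PD03 libraries. In two-sided exact permutation tests of 3 against 3 libraries, where the smallest possible p is 0.1, the difference was 0.47 for thrombin against control (p = 0.1, adjusted over the 3 comparisons 0.15), -0.17 for PD03 against thrombin (p = 0.2, adjusted 0.2) and 0.29 for PD03 against control (p = 0.1, adjusted 0.15). Over the 9 libraries, log2 CPM of Lifr and Osmr correlated with Pearson's r = 0.98, a description over libraries that share the same 3 groups.

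Osmr and Lifr are adjacent protein-coding genes in the GRCr8 order, which prompted a look, after the values were seen, at their neighbours. Beside Osmr, Rictor (a subunit of the mTORC2 kinase complex) had a log2 fold change of -0.05 for thrombin against control (edgeR adjusted p = 0.68). Beyond Rictor, Dab2 (an endocytic adaptor) fell with thrombin (-0.59, adjusted p = 2.6e-15), as did Fyb1 (an adaptor of immune cells; -0.87, adjusted p = 0.034), and C9 was not tested. Beside Lifr, Egflam (a matrix protein, pikachurin) fell with thrombin (-0.72, adjusted p = 5.1e-09) and was higher with PD03 than with thrombin alone (0.92, adjusted p = 1.8e-12). Farther out on that side, Gdnf, Wdr70 and Nup155 were not called with thrombin (0.15 to 0.21).

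The windows before both starts are shown for comparison, because the genes are neighbours and both fell with thrombin (Osmr chr2:57688562-57688811, minus strand; Lifr chr2:57963139-57963388, plus strand; GRCr8, 5′ to 3′, an AP-1 match in capitals):
Osmr: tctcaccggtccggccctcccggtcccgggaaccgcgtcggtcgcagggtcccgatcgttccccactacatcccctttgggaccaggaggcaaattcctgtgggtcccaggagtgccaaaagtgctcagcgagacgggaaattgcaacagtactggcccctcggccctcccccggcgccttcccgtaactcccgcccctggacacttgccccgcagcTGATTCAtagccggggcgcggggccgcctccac
Lifr: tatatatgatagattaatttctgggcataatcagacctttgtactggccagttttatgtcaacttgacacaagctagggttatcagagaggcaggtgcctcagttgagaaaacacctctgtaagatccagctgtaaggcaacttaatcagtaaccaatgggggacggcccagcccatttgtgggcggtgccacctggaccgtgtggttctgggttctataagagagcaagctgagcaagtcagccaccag
The Osmr window holds 1 AP-1 match at bases -33 to -27, a motif found in 7.33% of all windows and, among the members, also in that of Il11. The Lifr window holds none of the 5 motifs. The whole windows differ in base composition, with 69.3% G and C in that of Osmr and 50.0% in that of Lifr. Which starts these cells used was not measured.

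Il6st, the gene for gp130, had the highest level per length of the 10 genes in every group. It stood at 1358, 1333 and 1314 CPM in the control libraries, at 1277, 1229 and 1267 in the thrombin libraries and at 935, 982 and 1011 in the PD03 libraries. The 3 groups did not overlap, with PD03 lowest. No difference was called, with log2 fold changes of -0.09 for thrombin against control (edgeR adjusted p = 0.040), -0.37 for PD03 against thrombin (95% interval -0.43 to -0.30, adjusted p = 8.7e-13) and -0.45 for PD03 against control (-0.52 to -0.39, adjusted p = 3.0e-15), all short of the fold threshold.

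Il11ra1 encodes the private receptor for IL-11, whose own transcript was nearly absent here. Il11ra1 stood at 99.9, 101 and 108 CPM in the control libraries, at 90.1, 84.5 and 82.8 in the thrombin libraries and at 116, 99.997 and 106 in the PD03 libraries. The thrombin libraries lay below the others, and control and PD03 libraries overlapped. Thrombin against control gave -0.27 (edgeR adjusted p = 9.2e-05) and PD03 against thrombin gave 0.32 (adjusted p = 1.3e-06), neither of which was called. PD03 against control gave 0.06 (95% interval -0.05 to 0.16, adjusted p = 0.39), which turned to -0.06 with library totals or FPKM.

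Stat3 encodes the main transcription factor of the pathway. Stat3 stood at 348, 360 and 353 CPM in the control libraries, at 328.5, 331 and 327 in the thrombin libraries and at 329, 342.5 and 335.5 in the PD03 libraries. The libraries spanned a narrow range, with control highest. Its log2 fold changes were -0.10 for thrombin against control (95% interval -0.18 to -0.03, edgeR adjusted p = 0.021), 0.03 for PD03 against thrombin (-0.04 to 0.10, adjusted p = 0.51, and -0.07 with library totals or FPKM) and -0.07 for PD03 against control (-0.15 to -0.004, adjusted p = 0.088), none of them called. RNA level says nothing of Stat3 phosphorylation, which the libraries do not measure.

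Socs3 encodes the feedback inhibitor that binds gp130. Socs3 stood at 139, 148.5 and 150.0 CPM in the control libraries, at 147, 135 and 136 in the thrombin libraries and at 92.9, 83.9 and 84.0 in the PD03 libraries. Control and thrombin libraries overlapped, and every PD03 library lay below them. For thrombin against control the log2 fold change was -0.06 (95% interval -0.16 to 0.03, edgeR adjusted p = 0.35). Socs3 was lower with PD03 than with thrombin alone (-0.68 ± 0.049, adjusted p = 1.5e-15) and lower than in control (-0.74 ± 0.049, adjusted p = 1.7e-16). With edgeR's glmTreat, which tests against the fold threshold, the adjusted p for PD03 against thrombin was 0.069.

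**Figure D3:**
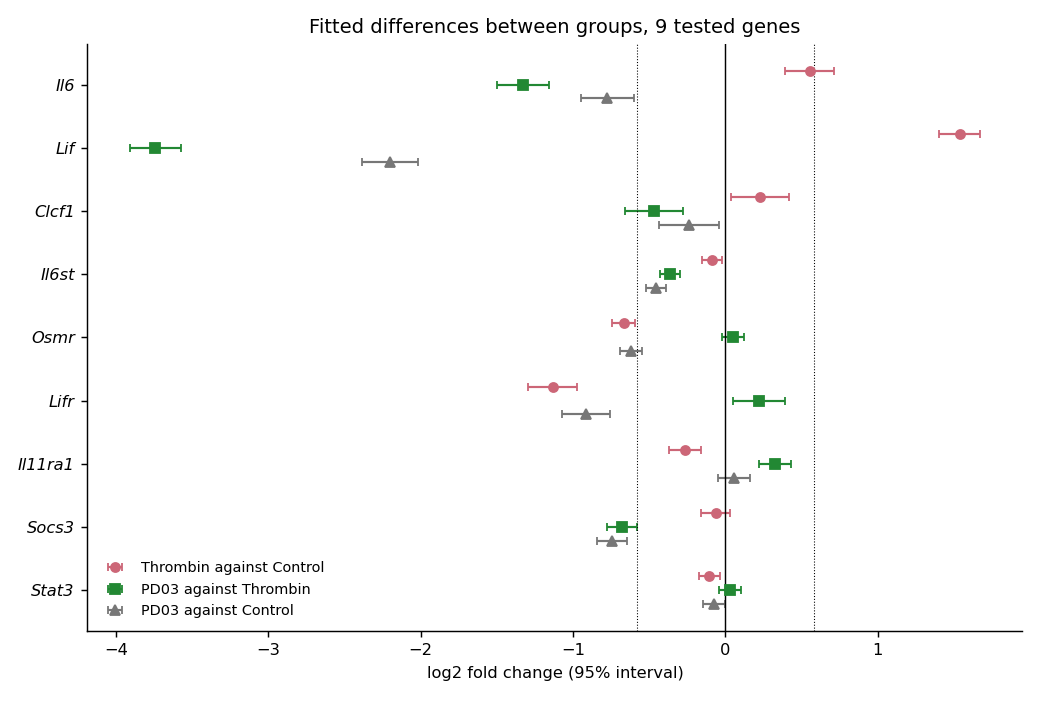
Log2 fold change of the 9 tested genes in 3 comparisons (points), with bars for the 95% interval and dotted lines at the fold threshold of 0.58 in either direction. Lif has values of 1.54, -3.74 and -2.20, Osmr and Lifr lie beyond the left line in both comparisons with control, and Socs3 lies there in both comparisons of PD03; the small PD03 against thrombin values of Osmr and Stat3 and the small PD03 against control value of Il11ra1 change sign with the scaling.

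In order of FPKM, control libraries ranked Il6st (168), Osmr (97.3), Stat3 (65.8), Il11ra1 (60.8), Socs3 (50.1), Il6 (39.1), Lifr (12.01), Lif (10.7), Clcf1 (8.65) and Il11 (0.038), and only the neighbours Socs3 and Il6 overlapped between libraries. In the thrombin libraries Il6st came first (156), then Osmr (60.6), Stat3 (60.5), Il6 (56.9), Il11ra1 (50.0) and Socs3 (47.4), each overlapping the next. Below these stood Lif (30.8), Clcf1 (10.0), Lifr (5.42) and Il11, with no overlap. In the PD03 libraries Il6st (113) was followed by Osmr (58.6), Il11ra1 (58.3) and Stat3 (57.7), which overlapped, then by Socs3 (27.6), Il6 (21.2), Clcf1 (6.78), Lifr (5.89) and Lif (2.16), of which only Clcf1 and Lifr overlapped. Lif thus ranked seventh in the thrombin libraries and ninth in the PD03 libraries.

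The wider family was read from lists of genes with known roles. Of 11 ligand genes, 6 were tested. With thrombin 1 of them rose (Lif) and none fell, beside 2.62% and 5.44% of all genes called higher and lower, with a list median of 0.18 against -0.006 over all tested genes. For PD03 against thrombin 3 were lower (Il6, Lif and Cntf, ciliary neurotrophic factor) and none higher, beside 6.31% and 9.61%, with a list median of -0.66 against 0.01. With log2(FPKM + 1) the number lower was 2. Cntf was low, at 1.58 to 2.56 CPM in control and thrombin libraries and 0.918 to 1.43 in PD03 libraries (log2 fold change -0.86 ± 0.30, edgeR adjusted p = 0.015). Ctf1 (cardiotrophin) stood at 2.94 to 4.79 CPM and Ebi3 at 0.233 to 1.07 CPM over all libraries, and neither was called in any comparison. Osm had at most 3 counts in any library, as did Ctf2, and Il27 had at most 1. Il31 was not analysed here.

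Of 8 receptor genes, 7 were tested. Of these 7, Il31ra and Il27ra had a mean under 10 counts over the 9 libraries and would not have been tested without the PD03 libraries, so they are given by their counts alone, a choice made after seeing the data. Of the other 5, with thrombin 2 fell (Lifr and Osmr) and none rose, beside 5.44% and 2.62% of all genes, with a median of -0.27. For PD03 against thrombin none of the 5 was called by edgeR, DESeq2 or limma voom. An unadjusted edgeR p under 0.05 was found for 3 of the 5, beside 55.2% of all genes. Of these 3, Il6st was lower (-0.37), and Lifr (0.22) and Il11ra1 (0.32) were higher. Il31ra, a gp130-like chain of the IL-31 receptor, had counts of 3, 5 and 4 in control, 1, 0 and 0 in thrombin and 20, 10 and 19 in PD03 libraries. Summed over each group, these were 12 counts in control, 1 in thrombin and 49 in PD03 libraries, and no ratio or interval is given for them. Il27ra stands on 2 rows, and the tested row had 7, 11 and 8 counts in control, 6, 4 and 4 in thrombin and 26, 10 and 11 in PD03 libraries. The control and PD03 libraries overlapped in these counts, and 1 PD03 library stood apart at 26. The other Il27ra row, which was not tested, was not higher with PD03. It had 8, 3 and 5 counts in control, 3, 4 and 2 in thrombin and 2, 1 and 4 in PD03 libraries. Il6r, the private IL-6 receptor, stood at 7.34 to 10.7 CPM over all libraries and was not called in any comparison, and Cntfr had 1 to 18 counts and was not tested.

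**Figure D4:**
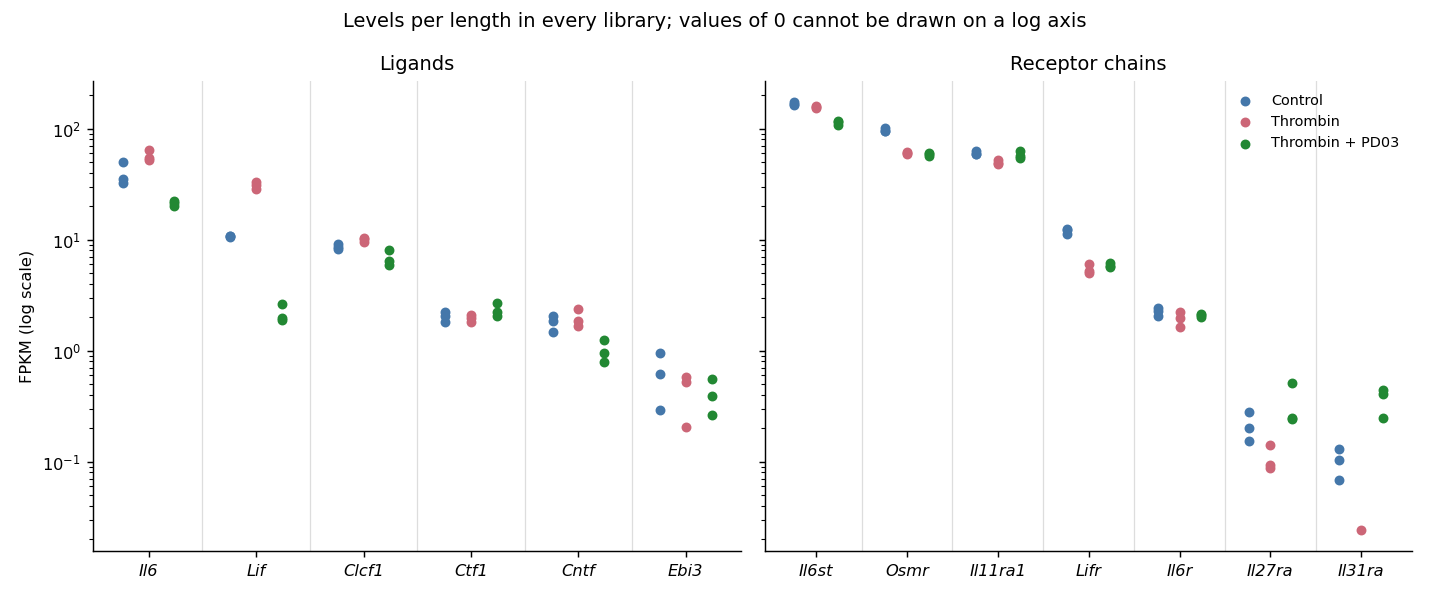
Deposited FPKM (log axis) of gp130 ligands (left) and of receptor chains (right), 1 point per library and colours for the 3 groups. Il6st lies highest, Lif is highest in the thrombin libraries, and Il31ra lies lowest in the thrombin libraries, of which 2 are at 0 and cannot be drawn.

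Of 11 JAK and STAT genes, 8 were tested and none was called in any of the 3 comparisons by edgeR, DESeq2 or limma voom with the fold threshold. At an unadjusted edgeR p under 0.05 stood 4 of 8 for thrombin against control, 4 for PD03 against thrombin and 6 for PD03 against control, as did 37.8%, 55.2% and 47.1% of all genes. Their log2 fold changes lay between -0.37 and 0.04 for thrombin against control, where 4 of 8 had an adjusted p under 0.05, beside 28.7% of all genes (Jak1, Stat2, Stat3 and Stat5a, all with negative values). They lay between -0.07 and 0.50 for PD03 against thrombin, where Jak1, Stat2, Stat4 and Stat5b had positive values with an adjusted p under 0.05, which 49.8% of all genes had. Jak1, the main kinase on gp130, stood at 330 to 335 CPM in control, 254 to 262 in thrombin and 289 to 315 in PD03 libraries, with no overlap (log2 fold change -0.37 ± 0.037 for thrombin against control, edgeR adjusted p = 7.7e-11). Stat4 stood at 130 to 141 CPM in control and thrombin libraries and at 191 to 200 in PD03 libraries (0.50 ± 0.041 for PD03 against thrombin, adjusted p = 7.7e-14), also short of the threshold.

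Of 16 inhibitors of the pathway (the SOCS family with Cish, the PIAS proteins and 4 tyrosine phosphatases), all were tested. None was called for thrombin against control by edgeR, DESeq2 or limma voom, where 2 of 16 had an unadjusted edgeR p under 0.05, beside 37.8% of all genes. Socs3 was the only member called for PD03 against thrombin and for PD03 against control, lower in each, and 1 of 16 is near the 6.31% and 4.07% of all genes called lower there. Socs5 came nearest among the others in PD03 against thrombin, at 179 to 203 CPM in control and thrombin libraries and 141 to 152 in PD03 libraries (log2 fold change -0.37 ± 0.043, edgeR adjusted p = 8.1e-10).

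Of 21 genes known as Stat3-responsive in other cells, 19 were tested. With thrombin 1 rose (Hif1a, 0.60, edgeR adjusted p = 2.3e-16) and 2 fell, the acute-phase genes Lcn2 (-0.76, adjusted p = 2.1e-19) and Lbp (-0.85, adjusted p = 3.4e-22), beside 2.62% and 5.44% of all genes, and the list median was 0.0005. With library totals Hif1a was no longer called and the list median was -0.02. For PD03 against thrombin 6 were lower (Fos, Myc, Pim1, Ccnd1, Cebpb and Timp1) and 2 higher (Lbp and Hp), beside 6.31% and 9.61% of all genes, with a list median of -0.15. The number lower was 4 with upper-quartile scaling and 7 with library totals. Fos overlapped between these groups, at 42.1, 18.2 and 19.9 CPM in thrombin and 18.9, 15.2 and 18.2 in PD03 libraries. Hp had only 18 to 46 counts per library. Lbp stood at 572 to 615 CPM in control, 311 to 340 in thrombin and 712 to 761 in PD03 libraries. Ccnd1, the gene for cyclin D1, had the lowest value of the list (-1.17 ± 0.057, adjusted p = 7.2e-21). Fos, Myc and Ccnd1 are also known as genes that respond to ERK. Against control, 3 were lower in the PD03 group (Fos, Ccnd1 and Lcn2) and none higher, beside 4.07% and 4.90% of all genes. Il4r, an interleukin-4 receptor chain, lay at the fold threshold in that comparison (0.58, edgeR adjusted p = 2.4e-13) and was called higher with DESeq2 size factors, DESeq2 and limma voom. The number lower was 2 by DESeq2 and 4 with library totals or FPKM.

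The action of PD03 was read from 15 genes known to respond to ERK. For PD03 against thrombin 11 of the 15 were called lower and none higher, beside 6.31% of all genes called lower. The list median was -1.03. Against control 11 were called lower, beside 4.07%. Short of the fold threshold, Spry1 was higher in PD03 against thrombin (0.42, edgeR adjusted p = 1.5e-07). Dusp4 was higher in PD03 against control (0.56, adjusted p = 0.00081), also short of it. Egr1 stood at 187 to 391 CPM in control and thrombin libraries and at 17.3 to 19.9 in PD03 libraries. With thrombin 2 of the 15 were called higher (Dusp4 and Phlda1) and none lower, beside 2.62% and 5.44% of all genes. Without the fold threshold, 9 of the 15 had an edgeR adjusted p under 0.05, beside 28.7% of all genes. Of these, Dusp4, Phlda1, Fosl1 and Ier3 were higher. Spry1 (-0.56), Etv5 (-0.52), Egr1 (-0.48), Dusp6 (-0.40) and Spry2 (-0.31) were lower.

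**Figure D5:**
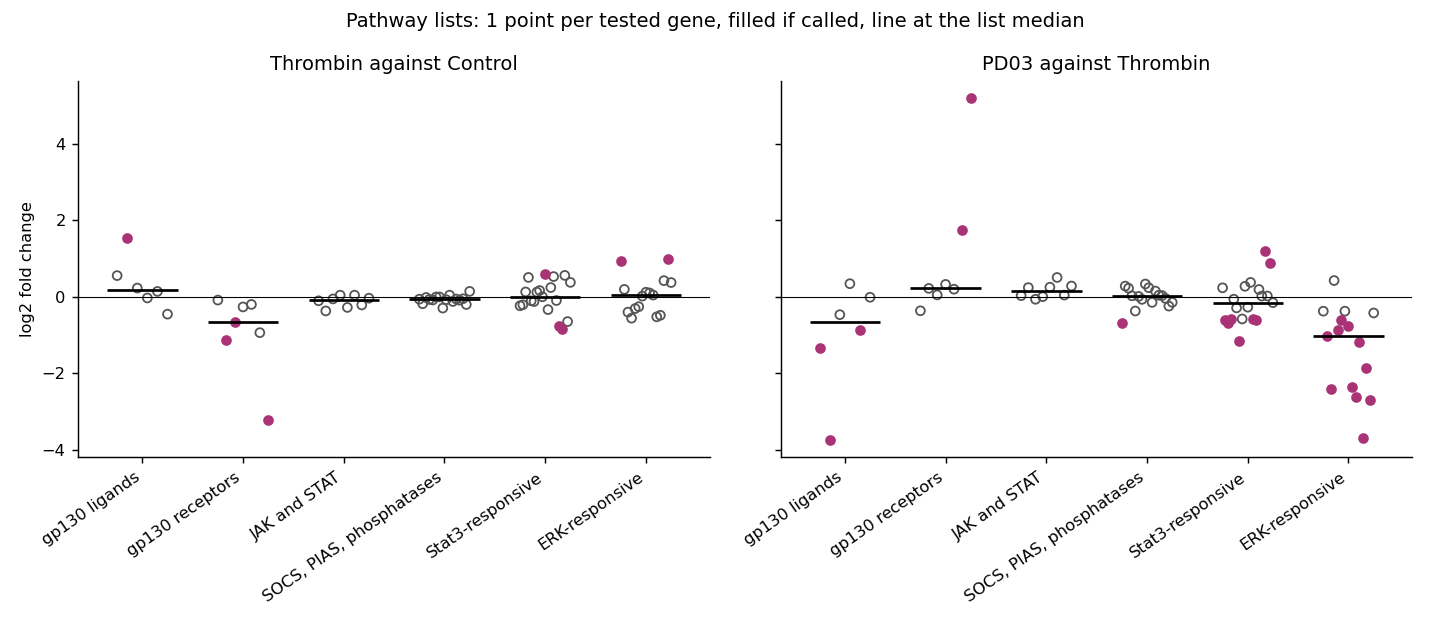
Log2 fold change of each tested gene in 6 lists for thrombin against control (left) and PD03 against thrombin (right), filled where called, with a line at the list median. Among the receptors Lifr, Osmr and Il31ra are filled on the left. Il31ra, with 1 count in all thrombin libraries, is the lowest point on the left and the highest on the right. The receptor points and medians include Il31ra and Il27ra, which would not have been tested without the PD03 libraries, so their fill is no evidence of a difference. The ERK-responsive genes lie lowest as a list on the right (median -1.03).

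The genes whose pattern was most like each member were found among 11922 others by Pearson's correlation of log2 CPM over the 9 libraries. Such values are descriptions, because all genes share the same libraries and group differences set most of each correlation. Lif was most like Tbx3 (r = 0.997), a T-box transcription factor, Ccbe1 (r = 0.997), a secreted factor of lymphatic growth, and Il33 (r = 0.996), an IL-1 family cytokine. Il33 averaged 230 CPM in control, 426 in thrombin and 103 in PD03 libraries. Il6 was most like Hspa8 (r = 0.987), Nfkbiz (r = 0.984), an atypical inhibitor of NF-κB known as a cofactor for Il6, and Rabl6 (r = 0.983), whose own differences were small, with log2 fold changes from 0.10 to 0.19 for thrombin against control.

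Lifr and Osmr shared 2 of their 3 nearest genes, Fgf23 (r = 0.993 with each) and Ptx3 (r = 0.988 and 0.993). Fgf23, a phosphate-regulating hormone of bone cells, averaged 37.6 CPM in control, 4.17 in thrombin and 5.76 in PD03 libraries. Ptx3, a secreted pentraxin, averaged 722 CPM in control, 389 in thrombin and 419.96 in PD03 libraries. The third gene was Ksr1, a scaffold of the RAF and MEK kinases, for Lifr (r = 0.984) and the phosphatase gene Ptprv for Osmr (r = 0.994). Il6st was most like Enpep, Rbpj and Igsf10 (r = 0.993 to 0.994), and Socs3 like Rbm14, Axl and Parp1 (r = 0.993 to 0.995), with all 6 lowest in the PD03 group by mean CPM. Clcf1 was most like Metap2 (r = 0.970), Il11ra1 like Ralgds (r = 0.991) and Stat3 like Cfap77 (r = 0.979), a gene at 0.706 to 1.51 CPM by group mean.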

How the data were processed

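RNA-seq was performed by the authors on 9 libraries, 3 per group, with groups taken from the sample titles. The authors deposited raw counts and FPKM values per gene. The paper names fastp, HISAT2, Rnor_6.0 and featureCounts, whereas the submitters' processing notes name HISAT2, HTSeq 0.13.5 and the build mRatBN7.2, so the counting tool and build are uncertain; the sources used here give neither annotation release nor strandedness. Raw counts were analysed with R 4.3.3, edgeR 4.0.16 (filterByExpr with a minimum count of 10, TMM, quasi-likelihood test, 1 fit of all 9 libraries, Benjamini-Hochberg adjustment over 13256 genes), with DESeq2 1.42.0 and limma 3.58.1 as alternatives. Calls required an adjusted p below 0.05 and a log2 fold change beyond 0.58 in either direction. Standard errors came from the F statistic, whose estimate of spread is shared in part across genes, and intervals are 95%. Floors cover counting error only. Pairs of replicates had a chi-square of 1.82 to 4.03 per degree of freedom, above sampling noise, so none were merged. The members and lists were chosen with earlier results of these data known. All 10 members, tested list genes and the 3 genes most correlated with each member (mean at least 1 CPM, prior count 2) could be named. Results for 1 listed gene are not reported here. Promoter sequences and gene order came from RefSeq (GRCr8), matched by symbol. Figures used Python 3.11.15 and matplotlib 3.10.9. Scripts were tested on simulated data. Alternatives covered scaling, filter, test, fold threshold, FPKM, replicate block and each library left out.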

Additional observations from a re-analysis of the deposited data

How the results depend on the processing

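Each result was recomputed under the alternatives. The 3 members called in thrombin against control became 7 with no fold threshold, as did the 3 called in PD03 against thrombin. The 5 called for PD03 against control were 1 with a log2 fold above 1 (Lif) and 3 when the fold threshold was part of the test in edgeR's glmTreat (Lif, Lifr and Socs3). Under glmTreat the adjusted p was 0.083 for Il6 and 0.81 for Osmr in PD03 against control, 0.068 for Osmr in thrombin against control and 0.069 for Socs3 in PD03 against thrombin. The sign turned for 3 small differences that were not called. Osmr in PD03 against thrombin was -0.0490 with library totals, -0.0482 with log2(FPKM + 1) and -0.0489 with log2(FPKM + 0.1). Stat3 in the same comparison was -0.0692, -0.0680 and -0.0690. Il11ra1 in PD03 against control was -0.0576, -0.0609 and -0.0619, and it ranged from -0.0023 (without PD03 replicate 1) to 0.098 (without PD03 replicate 2) with single libraries left out. Over all member fold changes, 614 values kept their direction and call, 13 gained a call, 11 lost it and 10 turned. Those that changed with 1 library left out are Il6, Clcf1 and Il11ra1, as given in the text. With library totals the share of called genes that were higher was 46.5% in place of 60.4% for PD03 against thrombin and 34.1% in place of 54.6% for PD03 against control, and with log2(FPKM + 1) it was 42.8% and 36.2%.

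Over all tested genes, correlations of deviations lay between -0.046 and 0.052 for same-numbered libraries and between -0.056 and 0.055 for other pairs across groups. Such correlations cannot exclude a pairing or batch that moved few genes. Replicate pairs that include replicate 1 had a chi-square of 3.06 to 4.03 per degree of freedom, and those without it 1.82 to 2.15. Fos and Cebpd were highest in replicate 1 of each group. Il6 was highest there in control and thrombin but lowest in PD03. With the replicate number as a block, 3, 3 and 5 members were called, and all genes called were 1067, 2103 and 1187 in place of 1068, 2110 and 1189. Depth limited Il11, Il31ra and Il27ra.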
